A study of Mus musculus with 21 samples.

Results

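Gm10800, Gm10801, Gm10718 and Gm10721 are predicted mouse genes with near-identical sequence, and they are 4 of the 35969 genes with a transcript in the deposited tables. They were chosen by their measured levels, because earlier results of these data showed them higher on a high-fat diet. The diet differences below are therefore descriptions without a test, and tests are given for renin and for the interaction only. Even there the choice was not blind, since earlier results had already named the genes in comparisons that hold the high-fat renin group. The reads of such copies are shared between them by the quantifier, so each gene's own value is uncertain and the sum of the 4 is given throughout.

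RNA was sequenced in 21 libraries from hearts of male C57BL/6NJ mice, 8 to 10 weeks old when assigned to a diet for 10 weeks. The design joins obesity from diet with hypertension from renin, to model the form of heart failure in which ejection fraction is preserved (HFpEF). Hearts were taken 6 weeks after injection behind the eye. The groups were chow plus null vector (chow control, n = 4), chow plus an adeno-associated virus carrying renin (AAV-Renin; chow renin, n = 6), a 60% kcal fat diet plus null vector (high-fat control, n = 6), and the fat diet plus AAV-Renin (high-fat renin, n = 5). The sample titles call the null vector groups novirus, and the promoter of the vector was not given in the sources used here. The labels do not tie each library to an animal, so the spread between libraries may in part be technical.

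Blocks of short units repeated head to tail, called satellite DNA, lie beside mouse centromeres. They are packed as constitutive heterochromatin, which is held silent by histone H3 lysine 9 methylation, HP1 proteins and DNA methylation. Low transcription of these repeats is known from many tissues, and the gene models placed on them have no established protein function. A few assembled copies stand for many copies in the genome, so reads assigned to such a model can come from any of them.

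Each of the 4 genes had a single transcript, annotated as protein coding without untranslated regions in GENCODE M21 on GRCm38. Gm10800 (ENSMUSG00000075014.1) lies on chromosome 2 from 98666547 to 98667301 on the minus strand, with a transcript of 660 bases. Gm10801 (ENSMUSG00000075015.3) lies beside it from 98662237 to 98664083 on the plus strand, with 504 bases. Gm10718 (ENSMUSG00000095186.1) lies on chromosome 9 from 3023547 to 3025218 on the plus strand, with 681 bases. Gm10721 (ENSMUSG00000096519.1) lies upstream of it from 3013140 to 3014344 on the plus strand, with 669 bases.

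The last exon shows how close the copies are, and it is printed for all 4 genes from the reference transcripts. Lower case letters are shared with Gm10721, and capitals mark a substituted or inserted base against that gene.

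Gm10721, chr9:3014222-3014344, plus strand: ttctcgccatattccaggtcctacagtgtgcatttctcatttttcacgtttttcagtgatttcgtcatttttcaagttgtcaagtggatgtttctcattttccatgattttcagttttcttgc
Gm10718, chr9:3025094-3025218, plus strand: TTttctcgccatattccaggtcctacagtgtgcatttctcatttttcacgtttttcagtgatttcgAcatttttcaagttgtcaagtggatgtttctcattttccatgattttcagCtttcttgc
Gm10800, chr2:98666547-98666669, minus strand: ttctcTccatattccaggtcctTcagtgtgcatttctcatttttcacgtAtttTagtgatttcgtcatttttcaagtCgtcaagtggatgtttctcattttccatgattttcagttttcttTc
Gm10801, chr2:98663961-98664083, plus strand: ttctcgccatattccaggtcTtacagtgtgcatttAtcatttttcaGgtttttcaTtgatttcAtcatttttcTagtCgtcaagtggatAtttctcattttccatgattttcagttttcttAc

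Across this exon of 123 bases in Gm10721, Gm10718 carried 2 substitutions (T65A and T115C, counted from 1 at the 5′ end of the Gm10721 exon) and 2 inserted bases at its start. Gm10800 carried 6 substitutions and Gm10801 carried 9, and T78C was present in both chromosome 2 genes. Over whole transcripts, 98.8% of aligned bases were identical between Gm10718 and Gm10721. The other 5 pairs ranged from 93.2% to 94.5%.

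The first exon of Gm10801 shows the repeat within a single gene. Capitals mark words of 12 bases that occur more than once in this exon, and they cover 49.3% of its 286 bases.

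Gm10801 exon 1, chr2:98662237-98662522, plus strand: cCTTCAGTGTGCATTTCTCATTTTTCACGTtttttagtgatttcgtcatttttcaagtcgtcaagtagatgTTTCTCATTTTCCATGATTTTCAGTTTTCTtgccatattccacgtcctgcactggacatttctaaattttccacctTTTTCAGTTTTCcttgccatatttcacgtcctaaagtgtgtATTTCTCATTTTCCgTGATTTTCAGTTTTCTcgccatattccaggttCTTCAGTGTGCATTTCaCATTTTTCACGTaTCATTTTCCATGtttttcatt

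Measured along the genome, words of 12 bases recurred at a distance of 234 bases in all 4 genes, which is the unit length of the mouse major satellite. At this distance lay 131 word pairs in Gm10721, where it was the commonest. In the other genes it came second, with 93 pairs in Gm10800 (135 at 251 bases), 65 in Gm10718 (133 at 701 bases) and 26 in Gm10801 (32 at 1509 bases). A and T made up 64.0% to 65.7% of each transcript, against a median of 50.7% over 134529 reference transcripts. Of the 25-base words of a transcript, the share found in no other transcript was 55.5% for Gm10801, 52.2% for Gm10800, 12.7% for Gm10718 and 7.92% for Gm10721. Reads of the pair on chromosome 9 were thus the least attributable to a single gene.

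A further 8 genes of the tables shared at least 50% of the 25-base words of 1 of their transcripts with the members. These relatives were Gm10715, Gm10717, Gm10719, Gm10720, Gm10722, Gm11168 and Gm17535 on chromosome 9 and Gm21738 on chromosome 14. A long noncoding relative, Gm26870, lies on the opposite strand of the same chromosome 9 region. It had no transcript in the deposited tables and so was not analysed here. Of the 25-base words of 1 of its transcripts, 79.0% were shared with the members on either strand. Reads from it may therefore have been assigned to the 12 genes, which was not tested. Whether the counting used strand was not given in the sources used here. The estimated reads of all 12 genes added up to a whole number, within 0.01 reads, in 19 of 21 libraries, whereas the sum of the 4 members did so in 0 of 21. Reads were thus divided among the 12 genes and hardly ever with other transcripts of the tables. These sums cannot show reads from transcripts that the tables lack, such as Gm26870.

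The summed level of the 4 members, in CPM (reads scaled by TMM to a common library total), differed by 51.7 times between the lowest and the highest of the 21 libraries. In chow control it was 6.47, 6.94, 59.4 and 15.8 CPM in replicates 1 to 4. In chow renin it had a lowest value of 17.6, a median of 23.0 and a highest value of 38.8 CPM. In high-fat control the lowest, median and highest values were 17.2, 78.0 and 335 CPM. In high-fat renin the 5 libraries measured 98.6, 294, 199, 111 and 173 CPM. Group means were 22.2 ± 25.2, 25.9 ± 8.52, 132 ± 127 and 175 ± 78.5 CPM in the same order (SD, n = 4, 6, 6 and 5).

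**Figure D1:**
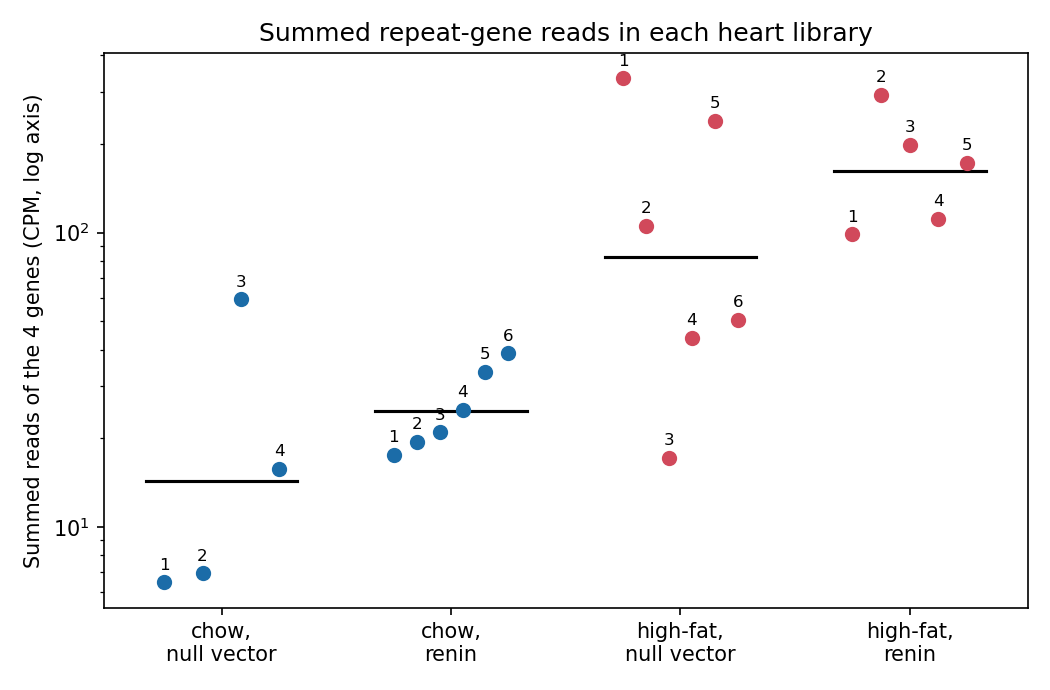
Summed CPM of Gm10800, Gm10801, Gm10718 and Gm10721 in each library on a log axis, by group; numbers are replicate numbers and bars are geometric means. The 5 high-fat renin libraries, 98.6 CPM and above, lie over all 10 chow libraries, and chow control replicate 3, at 59.4 CPM, lies over 3 of the 6 high-fat control libraries.

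Under renin the diet groups did not overlap, and all 5 high-fat libraries were above all 6 chow libraries. Of all 15216 genes tested, 5.54% showed the same complete separation upward, but the rule had used this contrast and nothing is read from the share. All 5 high-fat renin libraries also lay above all 4 chow control libraries, and the ratio of means was 7.90 (background share 4.98%). With the null vector the diet groups overlapped, where 1.06% of all genes were separate upward. There, 3 of 6 high-fat libraries (replicates 1, 2 and 5) were above every chow control library, and replicates 3, 4 and 6 were below chow control replicate 3. Over both treatments, 8 of 11 high-fat libraries were above all 10 chow libraries, and the ratio of means was 6.21.

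The 4 genes gave nearly the same diet difference. With the null vector the edgeR log2 fold change of high-fat over chow was 2.59 for Gm10800 (SE 0.81), 2.51 for Gm10801 (SE 0.79), 2.61 for Gm10718 (SE 0.77) and 2.50 for Gm10721 (SE 0.75). Under renin it was 2.78, 2.75, 2.70 and 2.79 in the same order, with SE of 0.63 to 0.70. For the sum it was 2.57 (SE 0.80) with the null vector and 2.76 (SE 0.69) under renin, or 5.95-fold and 6.76-fold. For comparison, edgeR called 0.0657% of all genes with the null vector (0.0131% higher, 0.0526% lower) and 22.6% under renin (9.8% higher, 12.8% lower), at an adjusted p under 0.05. Chow control replicate 3 moved the null vector value the most and lowered it: without this library the log2 fold change of the sum was 3.75. Without other single libraries it was 2.04 to 2.81. In the authors' deposited table, a column headed for the high-fat diet with virus, whose reference group is not stated, lists log2 fold changes of 1.47 for Gm10800, 1.29 for Gm10801, 1.67 for Gm10718 and 1.63 for Gm10721.

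**Figure D2:**
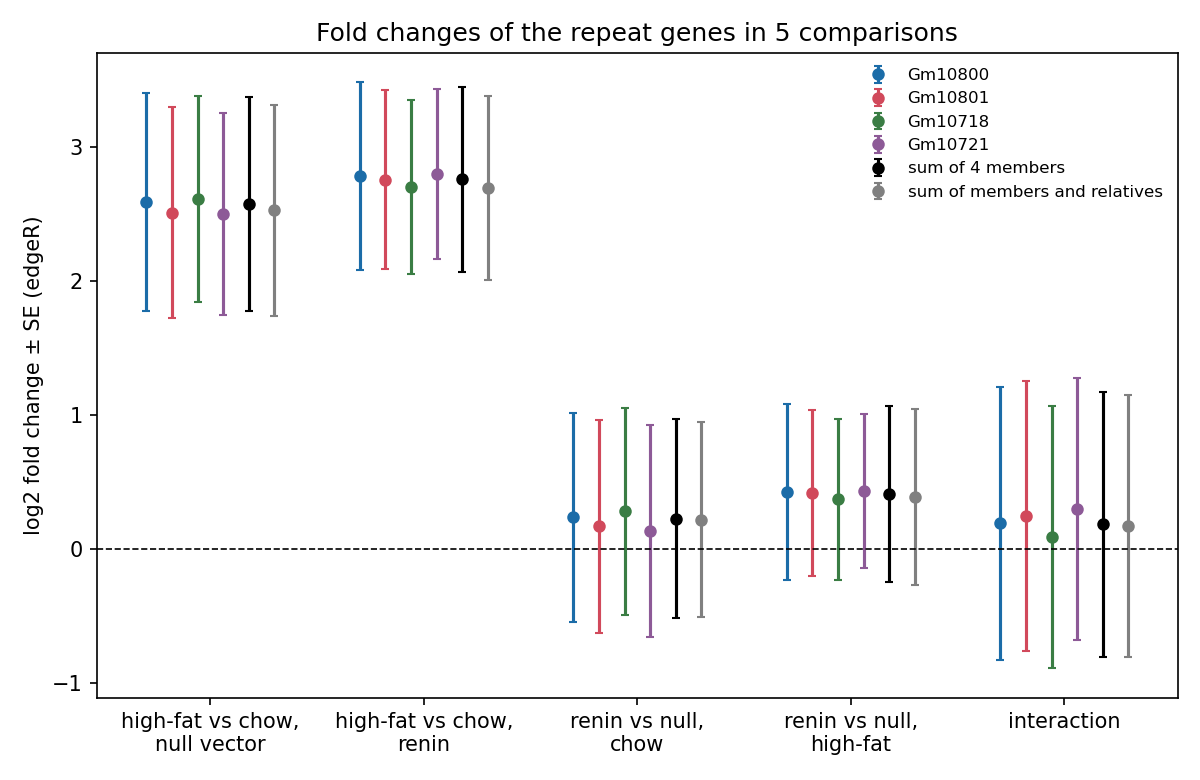
edgeR log2 fold changes with standard errors for each member, their sum and the sum with 8 relatives, in the 2 diet comparisons, the 2 renin comparisons and the interaction. For the members, diet values lie between 2.50 and 2.79, and renin and interaction values lie between 0.09 and 0.43.

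Gm10800 took the most reads of the 4. Its CPM was 2.64, 3.0, 28.7 and 6.50 in chow control and 8.50 to 17.6 in chow renin (median 11.1). On the fat diet it was 7.64 to 159 with the null vector (median 36.2) and 45.4, 139.9, 93.1, 53.0 and 81.2 with renin. Replicate 3 stood above the other chow control libraries, and no high-fat renin library overlapped a chow library. Its length-corrected level was 22.9 ± 28.6, 28.2 ± 8.48, 122 ± 122 and 179 ± 75.3 TPM (scaled by transcript length and library total) in the 4 groups (SD, same n).

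Gm10801, on the opposite strand beside Gm10800, had the next highest level per length. Its CPM was 1.59, 1.11, 13.2 and 3.54 in chow control and 3.96 to 8.09 in chow renin (median 4.92). On the fat diet it was 3.56 to 70.6 with the null vector (median 16.1) and 22.1, 59.9, 42.7, 23.3 and 36.5 with renin. In TPM it measured 17.3 ± 20.6, 20.3 ± 5.66, 87.0 ± 85.8 and 126.5 ± 49.1. Replicate 3 was again the highest of chow control, and all high-fat renin libraries were above all chow libraries.

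Gm10718 measured 1.79, 1.94, 11.9 and 4.12 CPM in chow control and 3.45 to 9.84 in chow renin (median 5.11). On the fat diet it was 4.23 to 75.8 with the null vector (median 18.2) and 21.4, 65.6, 44.5, 24.2 and 39.2 with renin. Its close copy Gm10721 was the lowest of the 4, at 0.498, 0.944, 5.71 and 1.60 CPM in chow control and 1.52 to 3.38 in chow renin (median 2.18). On the fat diet it was 1.74 to 29.6 with the null vector (median 7.58) and 9.65, 28.8, 18.3, 10.9 and 15.7 with renin. In both genes the high-fat renin libraries were above all chow libraries. In TPM, the group means of Gm10718 were 10.4 ± 10.4, 13.4 ± 5.41, 56.9 ± 55.1 and 80.3 ± 33.9. Those of Gm10721 were 4.78 ± 5.37, 5.52 ± 1.77, 24.0 ± 22.0 and 35.3 ± 14.8. By mean TPM the order was Gm10800, Gm10801, Gm10718 and Gm10721 in each group, and the order held within nearly all libraries. Gm10800 was above Gm10801, and Gm10718 above Gm10721, in 21 of 21 libraries, and Gm10801 was above Gm10718 in 20 of 21.

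**Figure D3:**
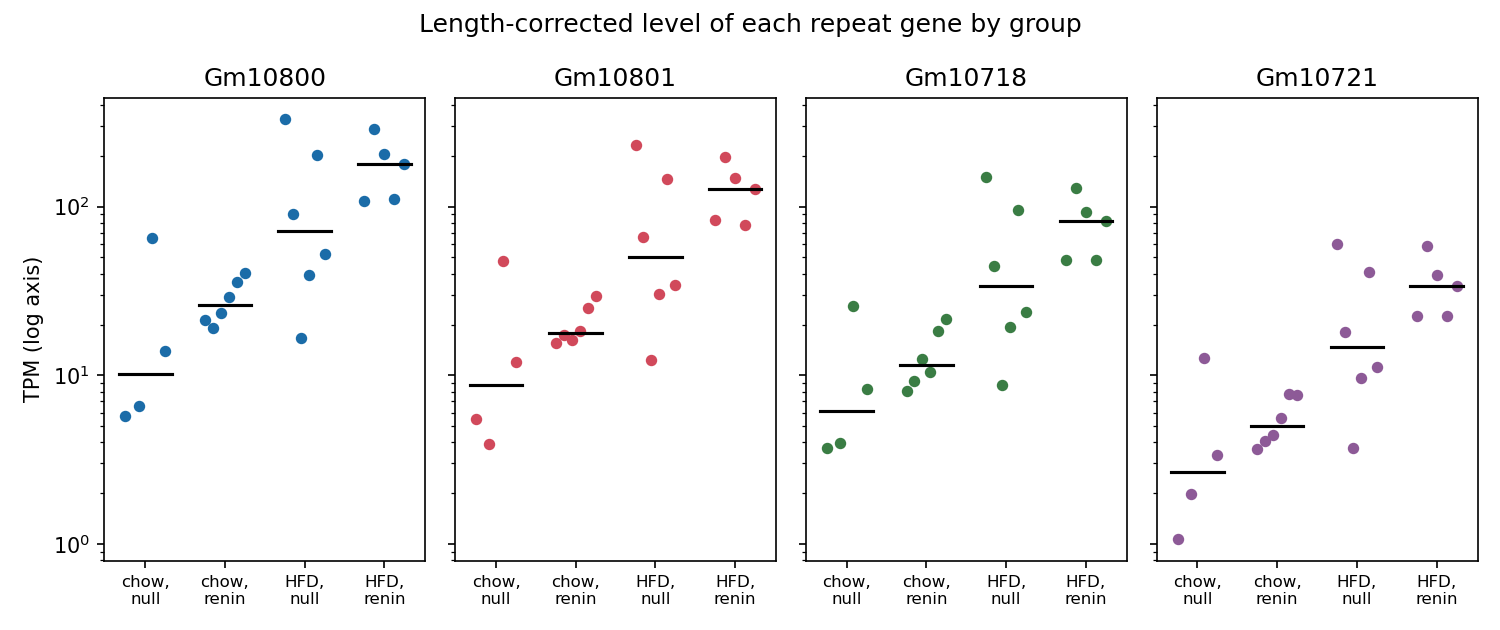
TPM of each member in each library on a log axis, by group (HFD, high-fat diet; null, null vector), with bars at the group median. In all 4 panels the chow control group has a library far above the other 3, the high-fat control group has the widest spread, and the high-fat renin points lie above the chow renin points.

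The split of reads between the 4 genes was much the same in every library. Gm10800 took 40.6% to 50.7% of their summed estimated reads, Gm10718 19.2% to 27.6%, Gm10801 16.2% to 24.8% and Gm10721 7.64% to 13.3%. The members took 49.5% to 60.9% of the reads of all 12 genes. Across the 21 libraries the log2 CPM of any pair of members had a Pearson r of 0.989 to 0.996. These libraries share the same division of reads between copies, so the 4 genes are not 4 separate observations. The sum rested on 125 estimated reads in the library with the fewest and 7677 in the library with the most.

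**Figure D4:**
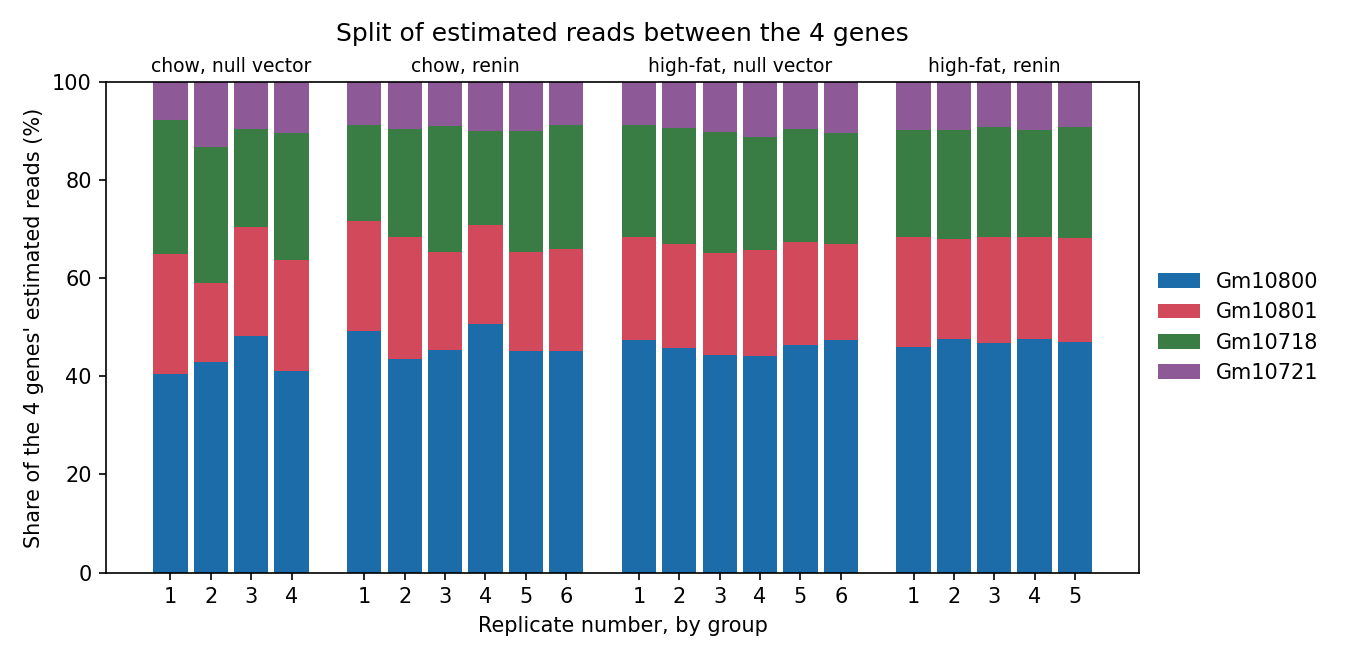
Share of the 4 members' estimated reads taken by each gene, in percent, for each library. Gm10800 has the largest share in every bar, from 40.6% in chow control replicate 1 to 50.7% in chow renin replicate 4.

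The relatives moved over the same libraries. Gm10719, the relative with the most reads, ranged from 1.61 to 115 CPM, Gm21738 from 1.20 to 48.8, Gm11168 from 0.778 to 39.0 and Gm10717 from 0.667 to 16.1. The other 4 relatives, Gm10715, Gm10720, Gm10722 and Gm17535, reached at most 1.86 CPM and had no reads in some libraries. The log2 fold changes of the 8 relatives were 2.01 to 2.60 for the diet with the null vector and 2.57 to 3.41 under renin. Summed with the members, the 12 genes took 0.00112% to 0.0532% of all reads of a library. The mean of that sum was 38.6 ± 43.6, 44.9 ± 15.3, 222 ± 211 and 290.04 ± 131 CPM in the 4 groups.

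Renin did not change the members detectably on either diet. By edgeR, 0 of 4 members were called for renin on chow, against 13.5% of all genes (10.1% higher, 3.36% lower). On the high-fat diet 0 of 4 were called, against 11.1% (6.07% higher, 5.08% lower), and in the interaction 0 of 4, against 10.4% (3.14% higher, 7.3% lower). In each, 0 members passed an unadjusted p of 0.05 and DESeq2 called 0. The groups with and without renin overlapped on both diets, whereas renin groups were wholly higher for 10.4% of genes with chow and 1.95% with the fat diet. The relatives gave 0 calls of 8 in each.

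For the sum, the log2 fold change of renin was 0.23 on chow (SE 0.74, edgeR adjusted p 0.899) and 0.41 on the high-fat diet (SE 0.65, adjusted p 0.745). The 95% intervals were wide. As folds they ran from 0.394 to 3.47 on chow and from 0.511 to 3.45 on the high-fat diet, so rises and falls of these sizes lay within the error. The interaction was 0.18 (SE 0.99, edgeR adjusted p 0.947). For single members, renin on chow gave 0.13 (Gm10721) to 0.28 (Gm10718), with edgeR adjusted p of 0.876 to 0.946. On the high-fat diet it gave 0.37 (Gm10718) to 0.43 (Gm10721), with 0.687 to 0.750.

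On the log2 CPM scale, where high libraries weigh less, the mean of the sum was 3.85 ± 1.48 in chow control and 4.64 ± 0.45 in chow renin. The difference of 0.79 had an exact permutation p of 0.238 (two-sided, adjusted over 2 comparisons 0.242). On the high-fat diet the means were 6.37 ± 1.61 and 7.34 ± 0.64, a difference of 0.96 with an exact p of 0.242. A single arrangement of the libraries makes up a share of 0.00476 and 0.00216 of all arrangements in these designs. A two-sided p cannot be below that share. Without chow control replicate 3 the edgeR log2 fold change of renin on chow was 1.41, the highest of the fits that left out 1 library, and its adjusted p was 0.290. Without chow control replicate 1 or 2 it was -0.070 and -0.057. For renin on the high-fat diet it was 0.94 without high-fat control replicate 1 and 0.14 without high-fat renin replicate 2, and adjusted p was at least 0.365 in all 11 such fits.

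**Figure D5:**
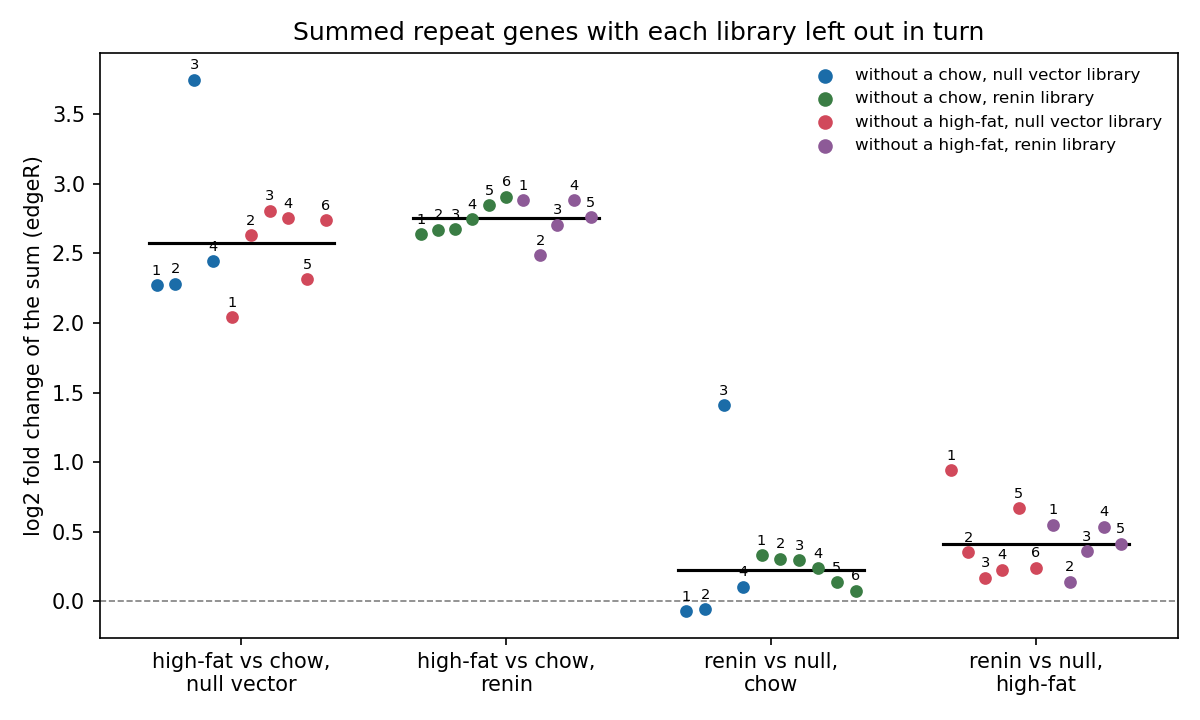
edgeR log2 fold change of the summed members when each library of the compared groups was left out in turn, with replicate numbers, for 4 comparisons; bars show the value with all libraries. The diet values stay between 2.04 and 3.75, and chow control replicate 3 moves the comparisons it belongs to the most.

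Spread within groups was wide for these genes. The edgeR biological coefficient of variation was 0.758 for Gm10800, 0.741 for Gm10801, 0.708 for Gm10718 and 0.704 for Gm10721, against a median of 0.125 over all 15216 genes tested. For the 4 members, 98.3% to 98.6% of genes had a lower value. The SD of the log2 sum was 1.48 and 1.61 in the chow and high-fat controls and 0.45 and 0.64 in the renin groups, and 99.0%, 99.4%, 89.7% and 93.4% of genes had a lower SD in the same order. The 2 null vector groups had the wider spread on both diets. Whether the spread differs between treatments was not tested.

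Depth, tissue markers and other library measures were set beside the members. Library totals ran from 18.7 to 29.3 M estimated reads and were lowest in chow control (18.7 to 21.4), so depth and group cannot be told apart there. Reads of Ren1, the mouse renin gene, were found in 4 of 21 libraries, at most 5 in any, so heart RNA did not check the vector labels. The ventricular markers Myh6, Myl2, Tnnt2, Tnni3, Actc1 and Pln were high in all 21 libraries. They summed to 52507 to 63847 CPM (chow control), 48303 to 51117 (chow renin), 49965 to 58182 (high-fat control) and 42095 to 49572 (high-fat renin). High-fat renin, where the members were highest by group mean, was thus below both null vector groups in this sum. Actc1 averaged 8164 CPM in high-fat renin, against 7310 in high-fat control and 8639 in chow control. Each other marker had a lower mean in high-fat renin than in both null vector groups. Myh6 made the largest part of the sum, at a mean of 23619 CPM in high-fat renin. The 4 fibroblast markers (Col1a1, Pdgfra, Dcn and Lum, all found, none at 0 in any group) had a median sum of 574 CPM there (495 to 719), against 386 (366 to 660), 364 (339 to 539.9) and 415 (375 to 766) in the other 3. The part of these shifts in the members' values was not tested. Atrial markers (Myl7, Sln, Myl4 and Nppa; 4 of 4 found, summed level 152 to 1102, 57.1 to 883, 31.0 to 768 and 118 to 1005 CPM in the 4 groups) were unevenly spread. By mean log2 CPM they stood apart in 5 libraries, at 6.58 to 7.79 against at most 2.91 in the other 16: chow control 3, chow renin 1 and 3, high-fat control 3 and high-fat renin 3. The same 5 also had the highest adipocyte scores (mean log2 CPM of Adipoq, Plin1, Fabp4 and Cidec), at 1.88 to 3.60 against at most 1.15 in the others.

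Those 5 libraries had high as well as low member levels. Chow control replicate 3 was the highest of its group, at 59.4 CPM, and high-fat control replicate 3 the lowest of its group, at 17.2 CPM. With all 5 left out, an alternative chosen after seeing the data, the diet difference of the sum was 3.98 (SE 0.81) with the null vector and 2.50 (SE 0.66) under renin. The renin values were then 1.60 on chow (edgeR adjusted p 0.266) and 0.12 on the high-fat diet (0.928), and the interaction was -1.48 (0.453).

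Markers of central nervous cell types were higher in chow renin, and not those of astrocytes alone. The 3 astrocyte markers (Gfap among them, all found, none at 0 in any group) summed to 59.4 to 106 CPM there. Elsewhere they summed to 14.1 to 19.3 (chow control), 17.9 to 29.7 (high-fat control) and 14.8 to 25.8 CPM (high-fat renin). The neuronal gene Rbfox3 averaged 5.72 CPM in chow renin and 1.01 to 1.62 CPM in the other groups. The oligodendrocyte gene Mog averaged 1.19 CPM there and 0.246 to 0.391 CPM in the others. Chow renin enters renin on chow, the interaction and the diet comparison under renin, and the part of these markers in the members' values there was not tested. In bulk RNA, fewer cells of a type and less RNA per cell cannot be told apart.

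Some library measures followed the members in part. Over 21 libraries that share groups and depth, the log2 sum had a Pearson r of -0.61 with the share of processed pseudogene reads, 0.57 with histone CPM, 0.54 with the endothelial marker score and 0.50 with the mitochondrial read share. After group means were taken off, these were -0.33, 0.42, 0.31 and 0.45. With the share of retained intron reads, 1.5% to 2.0% of a library, r was -0.46 (Spearman's rho -0.60) and -0.41 after group means were taken off. With the library total it was 0.50 and -0.02. Mitochondrial reads took 32.3% to 33.9%, 30.9% to 33.7%, 33.7% to 38.2% and 29.8% to 35.5% of reads in the 4 groups. A clock gene score had an r of 0.43 and 0.12. It was the mean log2 CPM of Arntl, Npas2, Clock, Nfil3 and Cry1 minus that of Dbp, Tef, Hlf, Nr1d1, Nr1d2, Ciart, Per1, Per2 and Per3. The score ran from -3.73 to -3.41 in chow control and -3.26 to -2.93 in chow renin, without overlap. On the high-fat diet it ran from -3.54 to -3.16 with the null vector and -3.25 to -2.21 with renin. Score and renin thus cannot be told apart on chow. With that score as a covariate, renin on chow was -0.12 for the sum (edgeR adjusted p 0.970). The summed reads of 423 olfactory and vomeronasal receptor genes with few reads, a measure added after seeing the data, were 12.4 to 21.6 CPM, with an r of -0.21.

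Genes that act on constitutive heterochromatin and DNA methylation were counted beside the members. Of a list of 55 genes, 54 were tested, and the list's median log2 fold change was between -0.05 and 0.00 in all 5 comparisons. For renin on chow edgeR called 6 higher and 0 lower, against 13.5% of all genes called. The chromatin remodeler Hells measured 1.27 ± 0.199 CPM in chow control and 3.07 ± 0.334 in chow renin, a log2 fold change of 1.27 (SE 0.24, adjusted p 0.000524). Uhrf1, which guides maintenance DNA methylation, rose by 1.06 (SE 0.26, edgeR adjusted p 0.00691). The DNA repair gene Brca1 rose by 1.39, the chromatin assembly subunit Chaf1a by 0.64, the AT-hook protein Hmga1 by 0.24 and the remodeler Atrx by 0.19 (edgeR adjusted p 0.0129, 0.00222, 0.0443 and 0.0439). The 4 proliferation markers (Mki67, Top2a, Cdk1 and Ccnb1) summed to 10.9 to 11.6 CPM (chow control), 8.42 to 16.5 (high-fat control), 23.5 to 32.6 (chow renin) and 11.1 to 35.5 (high-fat renin), and their part in these values was not tested.

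For renin on the high-fat diet 4 list genes were higher and 4 lower, against 11.1% of all genes called. Brca1 and Chaf1a rose again (1.26 and 0.67, edgeR adjusted p 0.0216 and 0.00244), as did Cbx5, which encodes HP1 alpha, by 0.22 and Lmna, a nuclear lamin gene, by 0.21 (0.0363 and 0.0116). Among the lower genes, Terf2, of the telomere complex, changed by -0.28 (edgeR adjusted p 0.0143). With the clock score as a covariate, 0 list genes were called here, and 2 in place of 6 for renin on chow. The score itself shifted with renin, so these fits cannot separate score from renin.

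In the interaction, Atrx alone was called, at -0.32 (SE 0.09, edgeR adjusted p 0.0150). For the diet with the null vector edgeR called 0 of 54 and 10 of 15216 genes in all. At an unadjusted p of 0.05 it counted 4 list genes and 1668 of all genes, and DESeq2 called 0 of 54. Under renin, 3 list genes were higher and 4 lower on the high-fat diet, against 22.6% of all genes called. Hells was -0.91 and Hmga1 -0.23, while Mecom was 0.34, Lmna 0.20 and Mbd3 0.19 (edgeR adjusted p 0.00315, 0.0259, 0.00612, 0.0072 and 0.0411).

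The genes whose level most resembled the summed members over the 21 libraries moved over a far smaller range. By Pearson r of log2 CPM among 15204 genes, these were Atf1 at 0.868, Fam189a2 at 0.848, Hspa8 at 0.835, Cd151 at 0.828 and Herpud2 at 0.827. Atf1, a transcription factor of the CREB family, ran from 37.3 to 50.4 CPM, and Hspa8, a constitutive chaperone, from 1176 to 1844 CPM. After group means were taken off both, the highest included Zbtb17 at 0.881, Btbd16 at 0.848, Fbxl7 at 0.806 and Taf1a at 0.791. Zbtb17, a zinc finger transcription factor, ran from 18.4 to 26.7 CPM. These values are descriptions over libraries that share groups and depth.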

How the data were processed

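RNA of 21 mouse heart libraries was quantified by the submitters, whose processing notes name Salmon 1.10.2, DESeq2 1.40.2 and the builds GRCm38 and mm10. Per the file headers, the authors deposited a transcript table per library with estimated counts (expected counts, not normalized) and TPM. The authors also deposited 1 matrix of 19096 genes, which holds a normalized signal for every library and the log2 fold change and adjusted p-value of 1 comparison. Library selection was not given in the sources used here.

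Of 119215 transcripts, 98.0% matched GENCODE M21 (GRCm38). Unmatched transcripts held 0.854% to 0.925% of a library's reads and were dropped. Gene totals of the estimated counts were rounded, and took the place of raw counts in the tests. filterByExpr kept 15216 of 23718 genes with reads.

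Groups came from the sample titles. All 21 libraries were fitted together with a term per group in edgeR 4.0.16 (R 4.3.3) with TMM factors (0.886 to 1.09) and the quasi-likelihood F test. P-values were adjusted by Benjamini-Hochberg across the 15216 genes and called at 0.05. Standard errors are the absolute log2 fold change over the square root of F, and intervals are at 95%. For a sum, the genes it adds were replaced by the sum and the fit was repeated. Log2 CPM used a prior count of 2. The fit was also run on simulated data, and the outcome is not reported here. Intervals cover the spread between these libraries and not the division of reads between copies.

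The alternatives were other scaling, no filter, DESeq2 1.42.0, limma 3.58.1 on log2(TPM + 0.5) and on log2(signal + 0.5), only the groups compared, a clock score as covariate, a replicate block, leaving out each library in turn, and leaving out 5 libraries.

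Named genes were the members and their relatives, called genes of the heterochromatin list (at most 6 a comparison by absolute log2 fold change), the 5 genes most like the sum by each of 2 correlations, and tissue markers. A few genes that this rule names are not reported here. The members and lists were chosen with earlier results of these data known. Of 12 listed transcripts without a poly(A) tail, 0 were found, and they were not analysed here. Replicate numbers were not used to pair libraries in the main fit. Of 28 same-numbered pairs, 11 had deviations correlated above 0.1 (range -0.226 to 0.421). Mean r over the same-numbered pairs was 0.092, against -0.019 for other pairs between groups. A link by replicate number was not tested beyond the replicate block. No library pair of a group differed by as little as sampling noise (chi-square per degree of freedom 3.61 to 57.6 over 46 pairs).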

Additional observations from a re-analysis of the deposited data

Results flagged for a closer look

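Chow control replicate 3 stood far from the other 3 libraries of its group by Dixon's gap test for Gm10800, at 28.71 CPM, and for the sum of members and relatives, at 103.2 CPM. Of 24 groups of values tested in this way these 2 passed, where chance flags about 1 in 20 groups, and the values share reads. The same library had the highest atrial and adipocyte marker scores of the 21 libraries, 7.79 and 3.60. High-fat control replicate 3, with scores of 7.39 and 3.17, had the lowest member sum of its group. The part of these markers in the members' values was not tested.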

How the results depend on the processing

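Over all fits the diet differences of the summed members were 2.04 to 3.98 on the log2 scale with the null vector and 2.49 to 2.91 under renin. The members were picked for this direction, so its being kept tests nothing. Renin and the interaction were never called for the sum or for any member (adjusted p of the sum at least 0.266 over all settings), and renin on the high-fat diet was above 0 in all fits (0.11 to 1.08 for the sum), but the interaction changed sign for the sum and all 4 members, and renin on chow for all of these except Gm10718 (0.0090 to 1.38). With the clock score, renin on chow was -0.12 for the sum, -0.13 for Gm10800, -0.14 for Gm10801 and -0.12 for Gm10721. Without the 5 libraries with high atrial markers the interaction was -1.48 for the sum, -1.61 for Gm10800, -1.45 for Gm10801 and -1.30 for both Gm10718 and Gm10721. Leaving out 1 library gave, for renin on chow, -0.070 to 1.41 for the sum, -0.075 to 1.56 for Gm10800, -0.14 to 1.37 for Gm10801 and -0.19 to 1.23 for Gm10721. The sum was below 0 without chow control replicate 1 or 2. For the interaction it gave -1.01 to 0.71 for the sum (below 0 without chow control replicate 3, high-fat control replicate 3 or high-fat renin replicate 2), -1.13 to 0.74 for Gm10800, -0.95 to 0.78 for Gm10801, -0.81 to 0.61 for Gm10718 and -0.80 to 0.76 for Gm10721. Limma on TPM gave 0.88 for renin on chow and 1.08 for renin on the high-fat diet. The cause was not tested.

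With the replicate block the sum was 2.41 and 2.72 for the diet without and with renin, 0.22 for renin on chow, 0.53 for renin with the high-fat diet and 0.32 for the interaction, and the block changed no call of the members.

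Counts of called heterochromatin genes moved more. The clock score shifted with renin, so counts with it as a covariate cannot separate score from renin. For renin on chow (6) the clock score gave 2, and leaving out 1 library 3 to 5 (3 without chow control replicate 1). For renin on the high-fat diet (8) library totals alone and no filter gave 5, limma on TPM 4, the authors' signal and only the groups compared 2, and the clock score 0. Leaving out 1 library gave 3 to 11 (3 without high-fat renin replicate 1, 2 or 5). In the interaction (1) upper-quartile factors gave 2, limma on TPM, the authors' signal and leaving out the 5 libraries 0, and leaving out 1 library 1 to 2 (2 without chow renin replicate 4 or high-fat renin replicate 2). For the diet under renin (7) the clock score gave 4 and leaving out 1 library 3 to 7 (4 without chow renin replicate 4 or high-fat renin replicate 1, 3 without high-fat renin replicate 5). Over all genes, renin on the high-fat diet gave 1696 calls, 8 with the clock score, 1076 with the authors' signal, 549 with only the groups compared and 696 to 2394 without 1 library. The diet with the null vector gave 10, against 35 (library totals), 124 (DESeq2), 108 (limma on TPM), 6 (clock score), 5 (only the groups compared), 0 (replicate block, or without the 5 libraries) and 0 to 57 without 1 library.

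The number of reads behind the sum, 125 to 7677, followed the members' level, and library totals spanned 18.7 to 29.3 M.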
